A study of Mus musculus with 24 samples.

Results

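The 37 genes described here belong to the unfolded protein response, which cells start when unfolded protein collects in the endoplasmic reticulum (ER), and to the integrated stress response, which meets it at the transcription factor Atf4. They were taken by gene name from a list, and all 37 are among the 54309 gene models of the deposited count table. They fall into 3 sets by role: Ern1, Atf6 and Xbp1 as sensors and their factor, 21 genes of ER chaperones and ER-associated degradation (ERAD), and 13 genes of the Atf4 and integrated stress response arm.

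Ern1 encodes an ER membrane kinase and nuclease that splices Xbp1 mRNA, which yields the active Xbp1 factor. Atf6 is a membrane-bound factor that is cut free in the Golgi, and with Xbp1 it turns on chaperones such as Hspa5 (BiP) and the ERAD machinery that takes misfolded protein out of the ER. In the other branch, kinases phosphorylate the initiation factor eIF2, which lowers general translation while mRNAs with upstream open reading frames, such as Atf4, are still translated; Ppp1r15a then brings a phosphatase back to eIF2. In dendritic cells and macrophages the Ern1 and Xbp1 branch is known to be engaged by Toll-like receptor ligands, of which LPS is one.

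RNA came from bone marrow-derived dendritic cells (BMDC), which were mouse bone marrow cells kept for 7 days in medium rich in GM-CSF. The genotypes are wild type (WT) and LCH, which the titles call mutant and which is named after Langerhans cell histiocytosis, a disease in which the BRAF-V600E mutation occurs; the labels do not give the allele, the promoter, the strain or the age. Each genotype was kept without inhibitor or given a BRAF-V600E inhibitor for 1 h, and every culture, controls included, then received LPS for 3 h, at 100 ug/mL per the labels, and a pulse of cycloheximide, which freezes ribosomes on mRNA. Total RNA and RNA of pooled gradient fractions with, per the labels, more than 2 polysomes (polysome RNA) were each sequenced, so that genotype, inhibitor and fraction make 8 groups of 3 libraries. The study used them to ask how the mutant kinase changes mRNA levels and their loading on polysomes after LPS.

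Total RNA libraries held 19046640 to 39792221 counts, and no member was at 0 in any of them. The LCH libraries of pool G, a letter in the column names, had a count for more genes than the others. In total RNA these were 37388 genes without and 38431 with inhibitor, against 16837 to 18406 in every other total library. In polysome RNA they were 27571 and 36772, against 11077 to 13505 in LCH pools E and F. What sets pool G apart was not tested. The depth of polysome libraries was 9188923 to 30455139 counts in LCH and 2017104 to 4090602 in WT. The 4 genes counted as rRNA type were Rn18s, mt-Rnr1, mt-Rnr2 and Lars2, which codes for a protein. Together they took up 18.0 to 65.1% of the counts in LCH polysome libraries and 71.4 to 99.2% in WT ones. Summed over the 37 members, an LCH polysome library had 47741 to 213506 counts and a WT one 76 to 9374, and between 4 and 30 members were at 0 in each WT polysome library. Among 8 dendritic cell markers none was at 0 in a group of total RNA, and their summed level in LCH was 12000 to 15000 CPM (counts scaled to a common library size with TMM factors), against 8130 to 12300 in WT, without inhibitor. The markers did not move as one: 1 was called higher and 1 lower in LCH, with log2 fold changes from -0.61 to 2.61. With inhibitor in both genotypes 4 were called higher and 2 lower.

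Short stretches upstream of the members are shown because the ER stress response element, ERSE, is the textbook site through which Atf6 and Xbp1 act. Windows from 250 bases before to 50 bases after the gene start were taken from RefSeq (GRCm38.p6), and 32 of 37 members had one. The letters CCAAT and CCACG with 9 bases between them, searched on both strands, were in the windows of 8 of 18 chaperone and ERAD genes (44.4%), in 0 of 12 genes of the Atf4 arm and in 37 of 27025 genes (0.137%). Each stretch is written 5′ to 3′ on the strand that reads the motif, with the fixed letters in capitals.
Hspa5 (chr2:34772015-34772053, plus strand): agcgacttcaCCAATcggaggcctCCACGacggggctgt
Hsp90b1 (chr10:86705523-86705561, plus strand): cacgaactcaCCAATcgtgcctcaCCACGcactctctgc
Creld2 (chr15:88819510-88819548, minus strand): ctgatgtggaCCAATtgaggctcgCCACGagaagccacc
Pdia6 (chr12:17266481-17266519, plus strand): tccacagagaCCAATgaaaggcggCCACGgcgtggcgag
Dnajc3 (chr14:118937817-118937855, plus strand): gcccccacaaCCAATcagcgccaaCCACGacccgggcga
Syvn1 (chr19:6046522-6046560, plus strand): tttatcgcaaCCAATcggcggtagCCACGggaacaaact
Calr (chr8:84847065-84847103, plus strand): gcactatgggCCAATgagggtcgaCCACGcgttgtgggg
Canx (chr11:50325790-50325828, minus strand): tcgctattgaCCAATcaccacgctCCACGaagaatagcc
The copies lie between 26 and 162 bases before the gene start, and Hsp90b1 has a further one that begins 212 bases before it. A match of letters is a description of these windows and not evidence of binding.

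A second element, ERSE-II, with the letters ATTGG and CCACG and 1 base between them, was in the windows of Herpud1 and Dnajb11 and in 0.0444% of all genes. The letters TTGCATCA, a form of the site that C/EBP and Atf4 dimers bind, were in those of Herpud1, Atf3 and Chac1 and in 1.03% of all genes. ERSE and ERSE-II share the letters CCACG, but no member window held the 2 of them, and no sites in the member windows overlapped. Herpud1 is shown because it holds the ERSE-II letters and TTGCATCA, with the Atf4-type site in capitals first and the ERSE-II site after it. Atf3 and Chac1 are shown because they are the genes of the Atf4 arm with the Atf4-type site.
Herpud1 (chr8:94386307-94386397, plus strand): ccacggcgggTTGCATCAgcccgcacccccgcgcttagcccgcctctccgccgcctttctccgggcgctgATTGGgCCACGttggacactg
Atf3 (chr1:191183426-191183453, minus strand): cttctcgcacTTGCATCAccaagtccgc
Chac1 (chr2:119351039-119351066, plus strand): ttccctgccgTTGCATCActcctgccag
A core of the Xbp1 site, GACGTGG, was in 1 member window, that of Pdia6, and in 2.73% of all windows.

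In total RNA without inhibitor, the sensors and many chaperone genes were higher in LCH than in WT cells, while Ppp1r15a and Ddit4 of the integrated stress response were lower. All 37 members passed the low-count filter, and 14 were higher and 2 lower at an adjusted p under 0.05 (edgeR), where 29.7% of 13375 genes were called, 14.8% higher and 14.9% lower. The median log2 fold change was 0.32 over the members and 0.02 over all genes tested.

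Of the sensors and Xbp1, all 3 were higher in LCH. Xbp1 (ENSMUSG00000020484.20), the factor spliced by Ern1, stood at 142.9, 137.2 and 140.9 CPM in LCH pools E, F and G and at 93.4, 88.95 and 90.2 CPM in WT pools A, BD and C. The groups did not overlap, and the log2 fold change was 0.63 (SE 0.08, adjusted p = 0.000239). These counts are per gene, so spliced and unspliced Xbp1 cannot be told apart. Atf6, the sensor cut free in the Golgi, stood at 89.6 ± 9.19 CPM (SD, n = 3) in LCH and 45.5 ± 3.16 in WT, higher by 0.98 on the log2 scale (SE 0.11). Ern1, the splicing nuclease, stood at 33.0 ± 4.56 and 21.2 ± 1.58 CPM, a log2 fold change of 0.64 (SE 0.12).

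Of the 21 chaperone and ERAD genes, 9 were higher in LCH, none was lower and 12 did not pass the test, with a median log2 fold change of 0.31. Hspa5, the ER Hsp70 chaperone that also holds the sensors inactive, stood at 1809, 1928 and 2265 CPM in LCH and 1259, 1073 and 1038 CPM in WT. The lowest LCH library lay above the highest WT library, and the log2 fold change was 0.83 (SE 0.15, adjusted p = 0.00208). Herpud1, an ER membrane protein of the ERAD complex, stood at 243.0, 189.1 and 185.1 CPM in LCH and 85.7, 44.0 and 55.8 CPM in WT, a 3.33-fold difference in group means (log2 fold change 1.73, SE 0.30). It had the highest log2 fold change of the 37, and its WT values spread more widely than its LCH values in proportion to their mean.

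Creld2, a secreted ER stress marker, stood at 67.1, 62.3 and 64.4 CPM in LCH and 33.6, 31.2 and 24.8 CPM in WT, which is 1.11 on the log2 scale (SE 0.12, adjusted p = 8.3e-05). The nucleotide exchange factor of Hspa5, Hyou1, was higher by 0.85 (SE 0.14) and the secreted ER protein Manf by 0.55 (SE 0.10) on the log2 scale. The ubiquitin ligase of ERAD, Syvn1 (0.81, SE 0.17), the disulfide isomerase Pdia6 (0.46, SE 0.10), the ER Hsp90 paralogue Hsp90b1 (0.48, SE 0.12) and the co-chaperone Dnajc3 (0.31, SE 0.08) complete the 9, on the same scale. In each of the 9 the LCH libraries lay above the WT libraries, but these genes were picked by their call in the same libraries. The share without overlap in that direction over all genes tested, called or not, was 22.8%, so the 9 cannot be set against it.

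The 12 that did not pass spanned log2 fold changes from -0.24 for Dnajb9, a co-chaperone and classical Ern1 and Xbp1 target, to 0.33 for Sdf2l1, which was 97.3 ± 5.87 CPM in LCH and 77.6 ± 12.1 in WT (SD, n = 3). Between them lay the isomerases Pdia3 (0.32) and Pdia4 (0.08), the co-chaperone Dnajb11 (0.26), the lectin chaperones Calr (0.24) and Canx (0.13), and Edem1 (0.19), which takes up misfolded glycoproteins. The ERAD adaptor Sel1l (-0.19), the retrotranslocation proteins Derl2 (0.15) and Derl1 (0.07) and the translocon subunit Sec61b (-0.10) were also among them.

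In the Atf4 arm 2 of 13 genes were higher, 2 were lower and 9 did not pass. Both shares are close to those of all genes, 14.8% higher and 14.9% lower, so the count is no result about the arm. Ppp1r15a, the regulatory subunit that brings PP1 to eIF2, stood at 87.0, 98.0 and 89.6 CPM in LCH and 206.8, 212.5 and 210.6 CPM in WT. The groups lay far apart, and the difference was -1.20 on the log2 scale (SE 0.08, adjusted p = 6.4e-06). Ddit4, an inhibitor of mTORC1 signalling that stress induces, stood at 2.42, 3.45 and 2.54 CPM in LCH and 8.55, 11.3 and 11.2 CPM in WT, which is -1.88 on the log2 scale (SE 0.20, adjusted p = 8.9e-05). The LCH values rest on 53 to 71 counts per library.

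The higher pair were Asns, which makes asparagine, and Trib3, a pseudokinase induced by Atf4. Asns stood at 22.7, 25.0 and 27.5 CPM in LCH and 14.5, 15.1 and 16.9 CPM in WT, a log2 fold change of 0.69 (SE 0.14), and Trib3 was higher by 1.00 (SE 0.25), at 3.92 ± 0.714 against 1.95 ± 0.379 CPM (SD, n = 3). Atf4 itself stood at 211.1, 227.1 and 189.8 CPM in LCH and 178.9, 160.2 and 163.3 CPM in WT. Its LCH libraries lay above the WT libraries, and its log2 fold change of 0.32 (SE 0.12, adjusted p = 0.0567) did not pass; it passed without LCH pool G (0.39, adjusted p = 0.0473), with DESeq2 (adjusted p = 0.0325) and in a fit of the compared groups alone (adjusted p = 0.0494).

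The other members of the arm that did not pass were Chac1, which breaks down glutathione (0.93), the growth arrest gene Gadd45a (0.70), Atf3 (0.39), the stress sensor Sesn2 (0.29), Cebpg (0.04), Atf5 (-0.23), the second eIF2 phosphatase subunit Ppp1r15b (-0.32) and Cebpb (-0.53), on the log2 scale. Of the 4 members whose upstream open reading frames are known to govern their translation, Atf4, Atf5, Ppp1r15a and Ppp1r15b, Ppp1r15a alone passed the test.

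**Figure D1:**
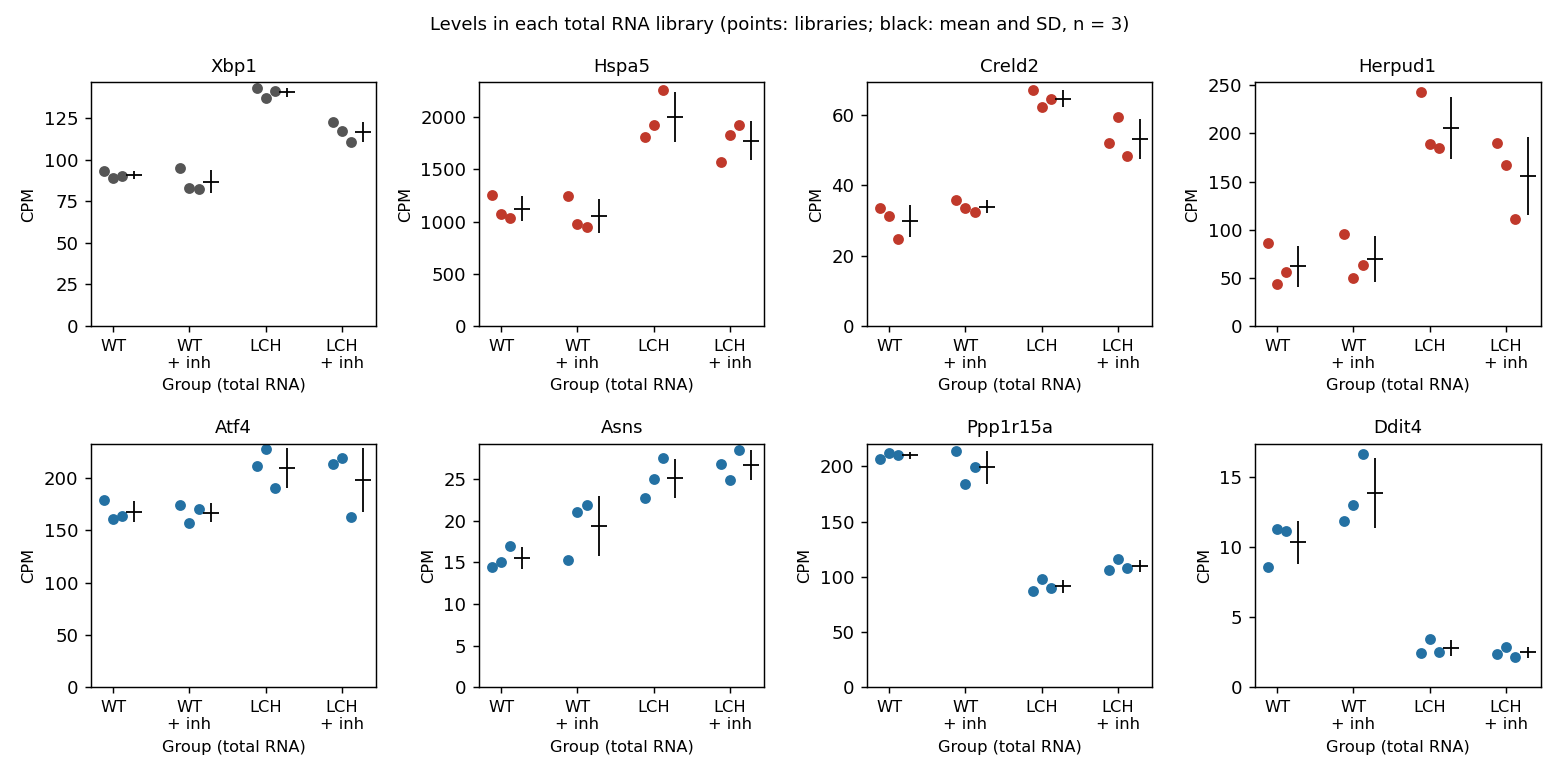
CPM in total RNA (y axis, starting at 0) of 8 members in the 4 groups (x axis; inh, inhibitor). Points are libraries and black marks are the mean and SD (n = 3); Xbp1, Hspa5, Creld2, Herpud1 and Asns sit higher and Ppp1r15a and Ddit4 lower in the LCH groups, as for Ddit4 at 2.42 to 3.45 CPM against 8.55 to 11.3 CPM without inhibitor.

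The plot of levels by library shows the same order of the genotypes with inhibitor as without for these genes other than Atf4, whose groups overlapped with inhibitor. In the heatmap of all members, the chaperone rows of the LCH libraries are mostly above the WT mean, and the darkest rows are Herpud1 above and Ddit4 below it.

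**Figure D2:**
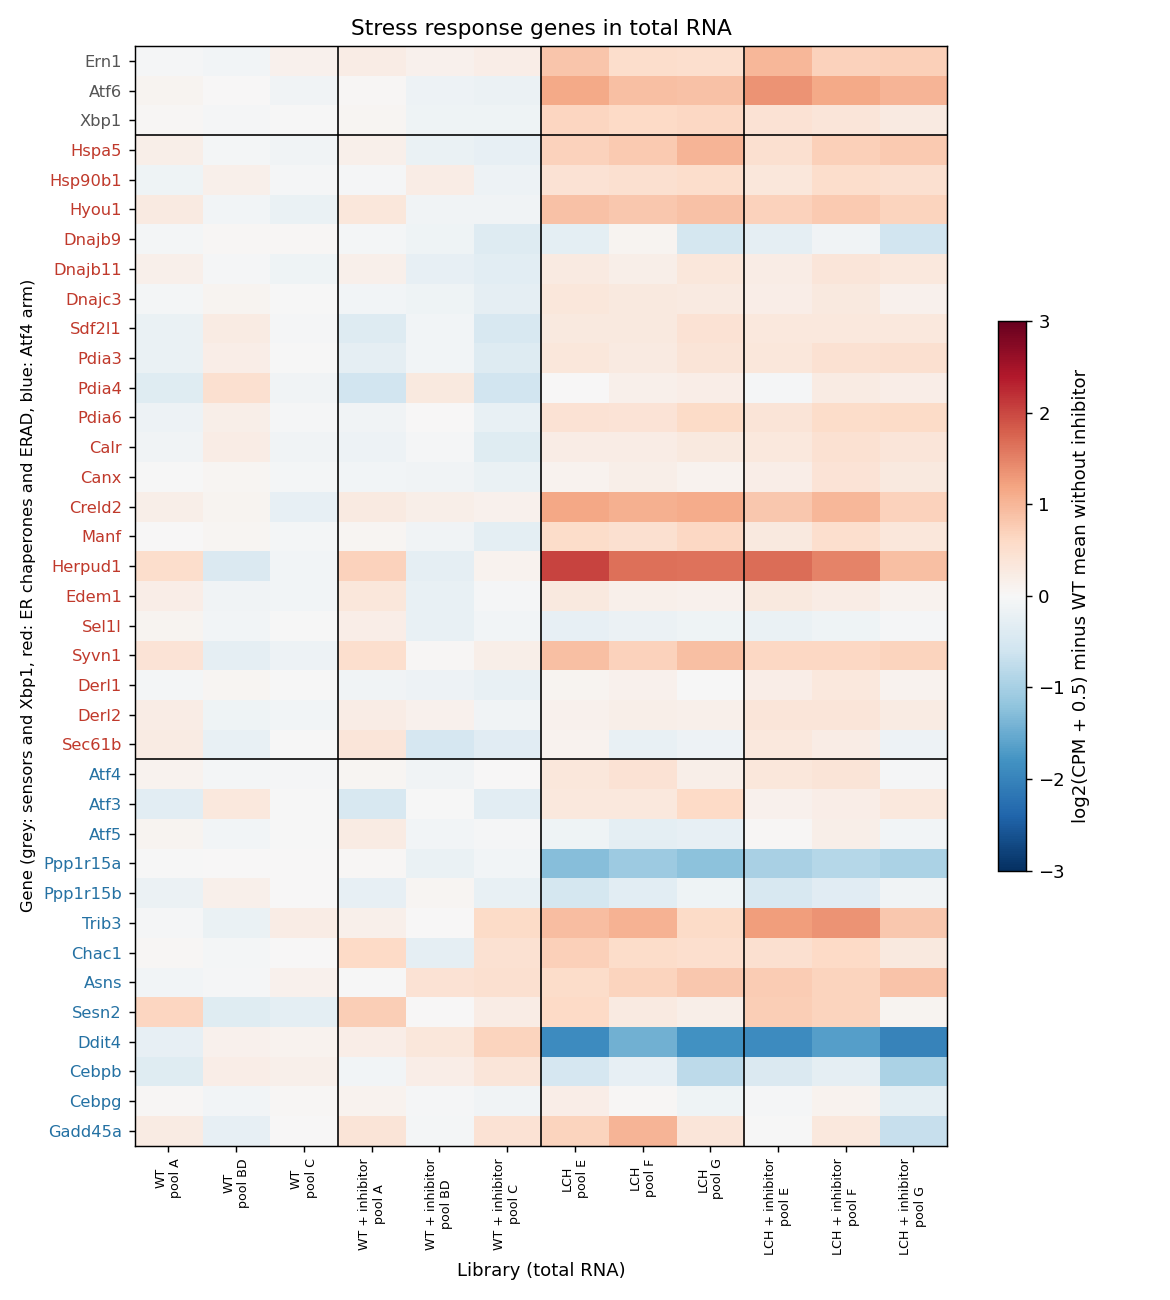
Log2(CPM + 0.5) of each member (rows) in each total RNA library (columns) minus the mean of the 3 WT libraries without inhibitor; red is higher, blue is lower. Sensors and Xbp1 stand at the top, chaperones and ERAD in the middle and the Atf4 arm at the bottom, and the colours of Ppp1r15a and Ddit4 are blue in all 6 LCH libraries.

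Genes around the members, from lists of the same pathways, gave these counts in the same comparison, where 14.8% of all genes were called higher and 14.9% lower. Of 39 tested genes of ER folding and secretion, 20 were higher and 1 lower in LCH, with a median log2 fold change of 0.29; the oxidase Ero1b (0.73, SE 0.11), the translocation protein Tram1 (0.56, SE 0.08), Txndc5 (0.77, SE 0.12) and the oligosaccharyltransferase subunit Ddost (0.63, SE 0.10) had the smallest p. Of 17 other ERAD genes 1 was higher, Edem2 (0.31, SE 0.09), and the median was -0.03. Of 20 amino acid supply genes that Atf4 is known to induce, 8 were higher, such as the proline enzyme Pycr1 (2.36, SE 0.27) and the transporter Slc7a5 (0.77, SE 0.10), and 2 were lower, the cystine transporter subunits Slc7a11 (-1.05, SE 0.19) and Slc3a2 (-0.59, SE 0.12). Of 18 cytosolic aminoacyl-tRNA synthetases 8 were higher and none lower, such as Vars (1.42, SE 0.12).

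Of 15 genes of eIF2 kinases and signalling, 3 were higher, Mbtps1, the protease that cuts Atf6 (0.37, SE 0.11), Eif2ak3, the ER kinase PERK (0.63, SE 0.20), and Eif2ak2 (0.39, SE 0.14), and 2 were lower, Crebrf (-0.75, SE 0.14) and Nupr1 (-1.03, SE 0.23). Both counts are near the shares of all genes, 14.8% higher and 14.9% lower, so they are no result about this list. Ddit3 (CHOP), the pro-apoptotic factor of the arm, did not pass (0.25, SE 0.21, adjusted p = 0.40). Of 11 cytosolic and mitochondrial heat shock genes, which answer to another stress pathway, none was higher and 5 were lower, such as Bag3 (-0.60, SE 0.12).

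Markers of other cell types differed between the same groups. All 8 neutrophil markers and all 8 markers of eosinophils, basophils and mast cells were lower in LCH, the former with a summed level of 253 to 354 CPM against 1120 to 2870 in WT, and the latter with 15.7 to 50.1 against 516 to 785. Macrophage and monocyte markers summed to 1840 to 2180 CPM in LCH and 1840 to 2520 in WT. These sums hide moves in both directions: of the 7 markers 1 was called higher and 2 lower in LCH, with log2 fold changes from -2.09 to 1.03. Plasma cells, which have a large ER, had markers that summed to 139 to 169 CPM in LCH and 235 to 294 in WT, with Tnfrsf17 at 0 in both. Mitochondrial mRNA took 1.75 to 3.74% of counts in LCH and 6.22 to 11.6% in WT total RNA, with and without inhibitor. The part of these in the members' differences was not tested, and in bulk RNA fewer cells of a type and less RNA per cell cannot be told apart.

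The ERSE letters divided the chaperone and ERAD genes as follows. Of the 8 with the letters, 6 were higher in LCH, all but Calr and Canx, with a median log2 fold change of 0.47. Of the 10 with a window and no such letters, 1 was higher, Herpud1, and the median was 0.17. Herpud1 and Dnajb11 of these have the ERSE-II letters, and Dnajb11 did not pass. Hyou1 and Manf, which were higher, and Derl1, which did not pass, had no window and are in neither set. Of 10 other tested genes with the ERSE letters 4 were higher, and of 10029 tested genes with a window 1549 were higher. With inhibitor in both genotypes, 7 of the 8 with the letters were higher, Calr and Canx among them and Syvn1 not, with a median of 0.49, against 4 of the 10 without, with a median of 0.31. Of the 10 other genes with the letters 1 was then higher, Ero1b, and of the 10029 with a window 940. The difference between these sets was not tested.

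**Figure D3:**
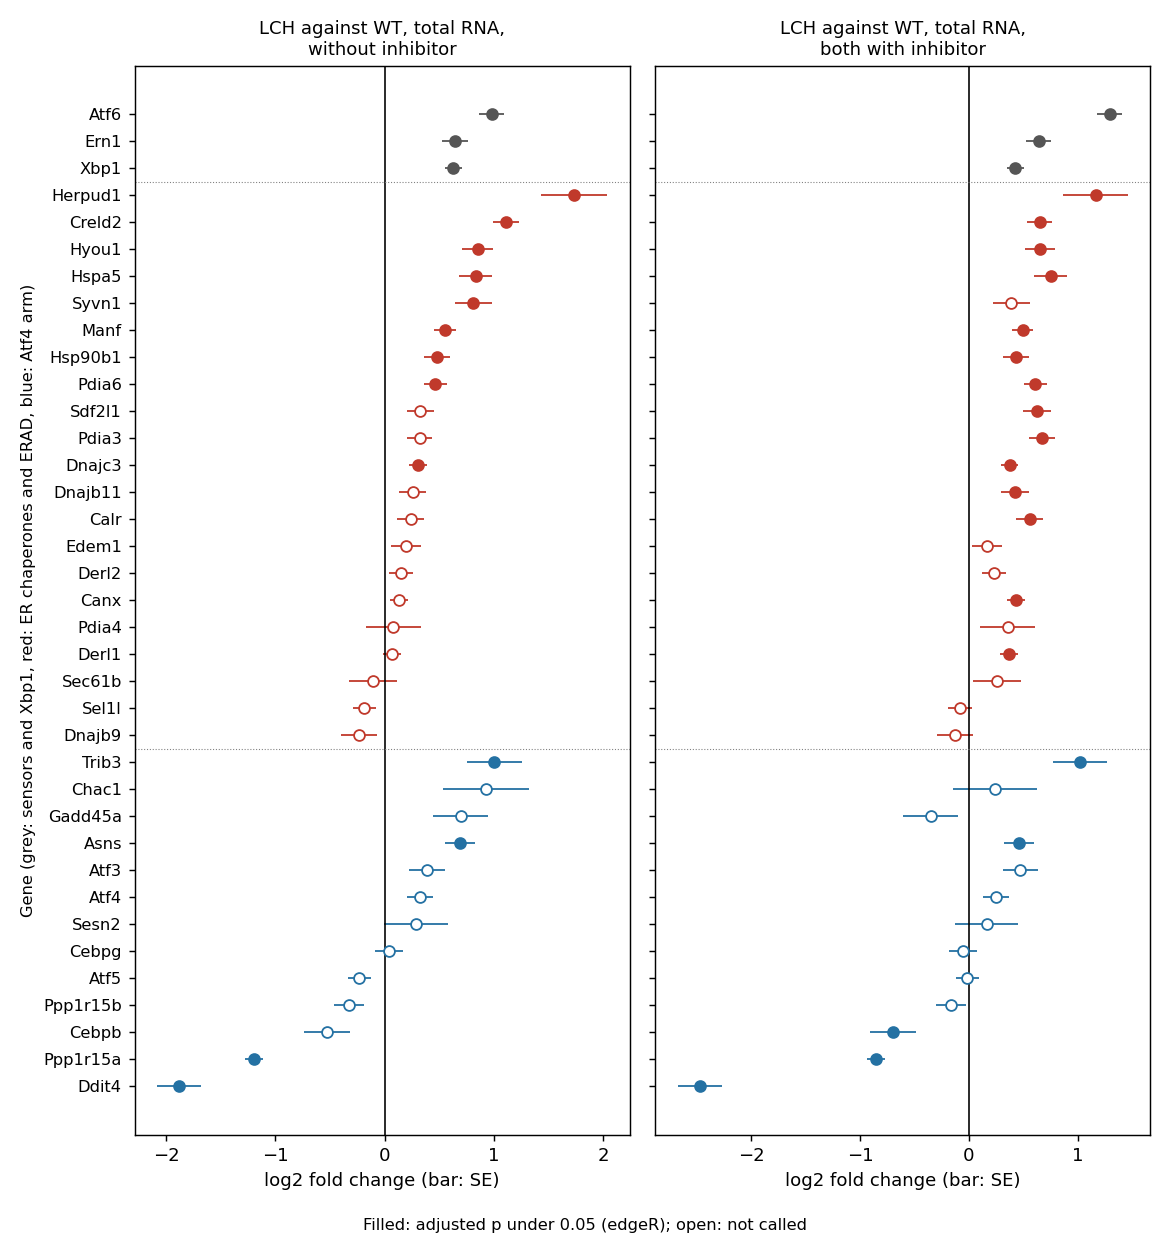
Log2 fold change of LCH over WT in total RNA (x axis, bars are SE) for the 37 members (y axis), without inhibitor at the left and with inhibitor in both genotypes at the right. Filled points are called at an adjusted p under 0.05 (edgeR), 14 higher and 2 lower at the left and 19 higher and 3 lower at the right.

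With inhibitor in both genotypes, 19 members were higher and 3 lower in LCH than in WT, where 20.3% of genes were called, 9.27% higher and 11.0% lower. All 3 sensors were higher, as were 14 of the 21 chaperone and ERAD genes, with none lower and a median of 0.43; of the Atf4 arm 2 were higher and 3 lower. Atf6 stood at 117.2, 100.6 and 92.8 CPM in LCH and 46.4, 40.5 and 40.0 CPM in WT, which is 1.29 on the log2 scale (SE 0.11, adjusted p = 5.1e-05). Xbp1 stood at 122.3, 117.1 and 110.3 CPM against 94.8, 82.9 and 82.5 CPM, which is 0.43 on the log2 scale (SE 0.08, adjusted p = 0.00333 by edgeR, but 0.0502 by limma on the authors' normalized values). Hspa5 was higher by 0.75 (SE 0.15) and Herpud1 by 1.16 (SE 0.30) on the log2 scale.

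The isomerases Pdia3 (0.67, SE 0.12) and Pdia6 (0.61, SE 0.10) and the lectin chaperones Canx (0.43, SE 0.08) and Calr (0.56, SE 0.12) were also among the higher genes, and Creld2 was higher by 0.65 (SE 0.12). Ddit4 stood at 2.40, 2.89 and 2.17 CPM in LCH and 11.9, 13.0 and 16.6 CPM in WT, the lowest log2 fold change of the members, -2.47 (SE 0.20, adjusted p = 2.9e-05). Ppp1r15a stood at 106.3, 116.1 and 107.9 CPM against 214.0, 184.2 and 199.3 CPM, with a log2 fold change of -0.85 (SE 0.08). Cebpb, a bZIP factor of the arm, was lower by -0.70 (SE 0.21, adjusted p = 0.0389), a call that was lost without LCH pool E (-0.75, adjusted p = 0.0937) or G (-0.53, adjusted p = 0.0999) and without WT pool BD (-0.69, adjusted p = 0.109) or C (-0.59, adjusted p = 0.158). Atf4 did not pass (0.25, SE 0.12, adjusted p = 0.157) except without LCH pool G (0.37, adjusted p = 0.0299), the library in which it was lowest, at 162.4 CPM.

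The inhibitor was then compared within each genotype. Without a term for the pool, no member was called in LCH (0.740% of genes called), in WT (0.710%) or in the difference between the inhibitor effects (0.389%), with 5, 3 and 5 members at an unadjusted p under 0.05. DESeq2 called more genes in all: 409 of the 13375 that passed the filter in LCH, among them 2 members, Ppp1r15a and Xbp1. It called 468 genes in WT and 341 in the difference, with no member in either. Libraries of the same pool deviated together, as did those of LCH pools E and F. A fit with the pool as a block called 11 members in LCH, 4 higher and 7 lower, where it called 17.2% of all genes (8.0% higher and 9.21% lower). It called 10 in WT, 5 higher and 5 lower, where it called 21.7% (10.5% and 11.1%). The inhibitor effects on total RNA that follow, in LCH, in WT and in their difference, are from the blocked fit. When a pool was left out of that fit, with both its libraries, many of these calls were lost: 4 of the 11 in LCH, 2 of the 10 in WT and 5 of the 13 in the difference were kept whichever pool was left out. The lost calls had adjusted p-values of 0.0666 to 0.256 in LCH, 0.079 to 0.334 in WT and 0.0529 to 0.201 in the difference.

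In LCH cells the inhibitor lowered Xbp1 and part of the chaperone genes by small amounts and raised Ppp1r15a. On the total RNA scale, Xbp1 went from 142.9 to 122.3 CPM in pool E, from 137.2 to 117.1 in pool F and from 140.9 to 110.3 in pool G. The fall was seen in all 3 pools, and it came to -0.27 on the log2 scale (SE 0.06, adjusted p = 0.00218). In WT, Xbp1 went from 93.4 to 94.8, from 88.95 to 82.9 and from 90.2 to 82.5 CPM in pools A, BD and C, which did not pass (-0.07, SE 0.06, adjusted p = 0.43). The difference between these effects did not pass either (-0.20, SE 0.08, adjusted p = 0.0932).

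Of the 21 chaperone and ERAD genes, 4 fell and 1 rose in LCH. Herpud1 went from 243.0 to 189.6, from 189.1 to 166.8 and from 185.1 to 110.9 CPM, a log2 fold change of -0.43 (SE 0.08), and Creld2 from 67.1 to 52.0, from 62.3 to 59.5 and from 64.4 to 48.2 CPM, a log2 fold change of -0.29 (SE 0.07). Syvn1 fell by 0.20 (SE 0.06) and Hspa5 by 0.17 (SE 0.06, adjusted p = 0.0409) on the log2 scale, and Canx rose by 0.17 (SE 0.05). Of the sensors, Atf6 rose by 0.21 (SE 0.06, adjusted p = 0.0144). Herpud1 and Xbp1 kept their calls whichever pool was left out. Without pool E the calls of Hspa5 (-0.16, adjusted p = 0.213), Creld2 (-0.25), Syvn1 (-0.16), Canx (0.21) and Atf6 (0.19) were lost, without pool F those of Canx (0.13) and Atf6 (0.19), and without pool G those of Hspa5 (-0.14, adjusted p = 0.242), Creld2 (-0.22), Syvn1 (-0.18) and Canx (0.17), on the log2 scale.

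In the Atf4 arm 2 genes rose and 2 fell in LCH. Ppp1r15a went from 87.0 to 106.3, from 98.0 to 116.1 and from 89.6 to 107.9 CPM, a rise in all 3 pools that came to 0.27 on the log2 scale (SE 0.06, adjusted p = 0.00318); it stayed below the WT libraries in each. Atf5, an Atf4 relative, rose by 0.27 (SE 0.07). Gadd45a went from 60.9 to 38.2, from 78.3 to 47.6 and from 49.2 to 23.7 CPM, which is -0.81 on the log2 scale (SE 0.08, adjusted p = 9.0e-07); Atf3 fell by 0.20 (SE 0.05). Atf4 (-0.09, SE 0.06, adjusted p = 0.34) and Ddit4 (-0.17, SE 0.16, adjusted p = 0.54) did not pass. The calls of Ppp1r15a and Gadd45a were kept whichever pool was left out, while that of Atf5 was lost without pool F (0.17) and that of Atf3 without pool E (-0.20) or G (-0.15).

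In WT cells Sdf2l1 (-0.32, SE 0.06), Atf3 (-0.27, SE 0.05), Pdia4 (-0.28, SE 0.06), Pdia3 (-0.24, SE 0.06) and Calr (-0.18, SE 0.06) fell with the inhibitor, on the log2 scale. Syvn1 (0.24, SE 0.06), Asns (0.31, SE 0.09), Ddit4 (0.42, SE 0.13), Gadd45a (0.26, SE 0.08) and Sesn2 (0.32, SE 0.10) rose. Ddit4 went from 8.55 to 11.9, from 11.3 to 13.0 and from 11.2 to 16.6 CPM in pools A, BD and C. Hspa5 (-0.10, SE 0.06), Atf4 (-0.01, SE 0.06) and Ppp1r15a (-0.08, SE 0.06) did not pass. Sdf2l1 and Atf3 kept their calls whichever pool was left out. Without pool C the calls of the other 8 were lost (Pdia4 -0.21, Pdia3 -0.20, Calr -0.15, Syvn1 0.18, Asns 0.27, Ddit4 0.32, Gadd45a 0.16 and Sesn2 0.21), without pool BD those of Calr (-0.15), Syvn1 (0.21), Asns (0.23), Gadd45a (0.29) and Sesn2 (0.29), and without pool A that of Ddit4 (0.39), on the log2 scale. Without pool A 16 members were called, 4 higher and 12 lower, in a fit that called 3079 genes in all, against 2899 with all pools.

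The test of the difference, the effect in LCH minus that in WT, called 13 members in the blocked fit, 8 higher and 5 lower, where 19.7% of genes were called, 9.88% higher and 9.85% lower. The lower ones were Gadd45a (-1.07, SE 0.11, adjusted p = 5.1e-06), Herpud1 (-0.60, SE 0.12), Ddit4 (-0.59, SE 0.20), Creld2 (-0.47, SE 0.11) and Syvn1 (-0.43, SE 0.09). Ppp1r15a (0.35, SE 0.08), Atf6 (0.31, SE 0.08) and 6 chaperone and ERAD genes, among them Pdia3 (0.34, SE 0.09), Calr (0.31, SE 0.08) and Canx (0.30, SE 0.08), were higher. Hspa5 (-0.07, SE 0.08) and Atf4 (-0.08, SE 0.08) did not pass. Gadd45a, Syvn1, Ppp1r15a, Pdia3 and Canx kept their calls whichever pool was left out. The call of Herpud1 was lost without WT pool A (-0.60), BD (-0.59) or C (-0.57), that of Creld2 without C (-0.37), that of Calr without LCH pool F (0.27), and that of Atf6 without BD (0.28), E (0.30) or F (0.29). The call of Ddit4 was kept when pool BD was left out and lost without A (-0.56), C (-0.49), E (-0.66), F (-0.54) or G (-0.56).

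Markers of other cell types moved with the inhibitor in the same fit. All 8 neutrophil markers were above 0 in WT, 6 of them called, with a median log2 effect of 0.53, and 1 of 8 was above 0 in LCH, with 4 called lower and a median of -0.34. In the difference all 8 were below 0, 6 of them called, with a median of -0.82. Markers of eosinophils, basophils and mast cells numbered 8 of 8 above 0 in WT, 5 called, with a median of 0.43, and 1 of 8 in LCH, 2 called lower, with a median of -0.39; in the difference 4 of 8 were called, all lower, with a median of -0.82. Neutrophil markers summed to 196 to 294 CPM in LCH and 1830 to 3990 in WT with inhibitor. Of 7 macrophage and monocyte markers 5 were called lower and 1 higher in WT and 1 lower and 2 higher in LCH. In the fit without the block no neutrophil marker was called, nor was any member. The part of these cells in the members' inhibitor effects was not tested.

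**Figure D4:**
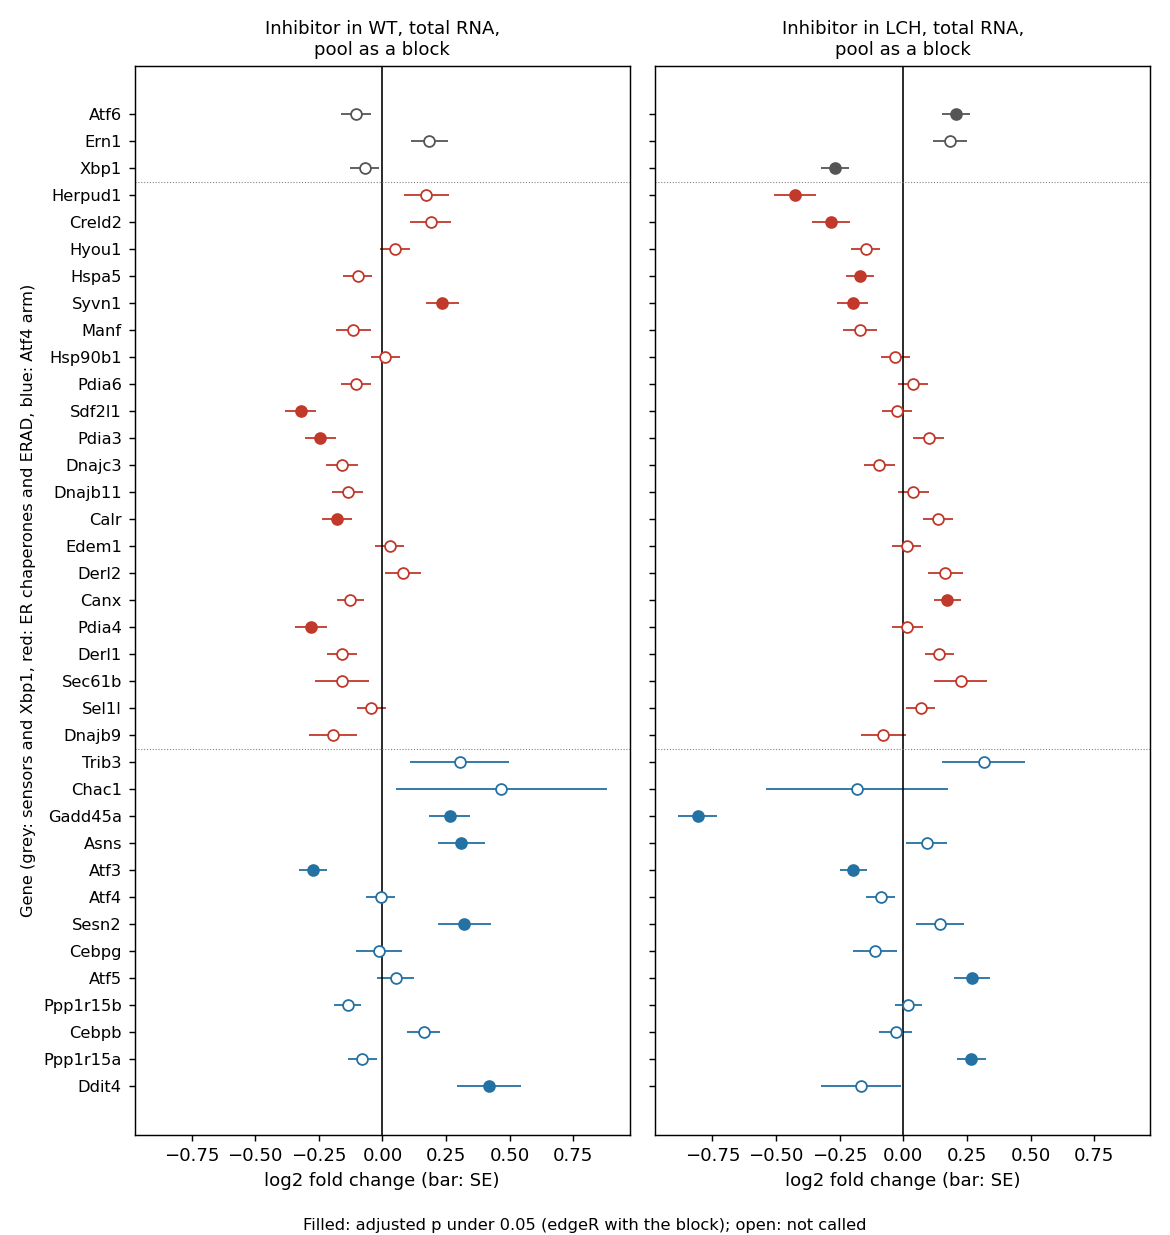
Log2 fold change with inhibitor in total RNA (x axis, bars are SE) for each member (y axis), in WT at the left and LCH at the right, from the fit with the pool as a block. Filled points are called at an adjusted p under 0.05, 5 higher and 5 lower in WT and 4 higher and 7 lower in LCH, among them Gadd45a at -0.81 and Xbp1 at -0.27 in LCH.

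In LCH cells, polysome RNA was set against total RNA of the same pool letter and inhibitor state, taken as the same culture. The culture was a block, and CPM were scaled over the 12 LCH libraries. The polysome columns of pool G are written GH, and that they hold the same culture as G is an assumption. The labels list total RNA as the molecule of the total libraries and polyA RNA as that of the polysome libraries, so a difference of library type and one of loading cannot be told apart. The median log2 ratio over all genes was -0.26 without inhibitor, and each value is to be read against it. Here 14 members were higher and 6 lower in polysome RNA, where 29.5% of 14816 genes were called, 14.8% higher and 14.6% lower. The member median was 0.32. In a fit of all 24 libraries, which takes in the shallow WT polysome libraries, no member and 17 genes were called. The log2 ratios there were 3.09 for Sec61b, 2.94 for Cebpb, 2.53 for Hsp90b1 and 0.97 for Atf4, with adjusted p-values of 0.245, 0.171, 0.167 and 0.676 by edgeR.

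All 3 sensors were lower in polysome than in total RNA of LCH cells. Xbp1 stood at 59.0, 26.1 and 65.3 CPM in polysome RNA of pools E, F and G and at 95.4, 91.5 and 95.6 CPM in total RNA, a log2 ratio of -0.99 (SE 0.33, adjusted p = 0.0444). Pool F was lowest, and without its polysome library (-0.65, adjusted p = 0.0982), its total library (-0.65, adjusted p = 0.0857) or the block (-0.90, adjusted p = 0.0809) the call was lost. The log2 ratio was -1.39 (SE 0.30, adjusted p = 0.00145) for Ern1 and -0.66 (SE 0.22, adjusted p = 0.0279) for Atf6. The call of Atf6 was lost without the libraries of pool E (polysome -0.85, adjusted p = 0.0522; total -0.85, adjusted p = 0.0521) or F (polysome -0.42, adjusted p = 0.294; total -0.42, adjusted p = 0.30) and without the block (-0.60, adjusted p = 0.0846).

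Of the 21 chaperone and ERAD genes 9 were higher, 2 lower and 10 did not pass. The small translocon subunit Sec61b stood at 711.6, 598.7 and 514.7 CPM in polysome and 82.75, 65.7 and 70.2 CPM in total RNA, a log2 ratio of 3.06 (SE 0.20, adjusted p = 9.0e-09). Hsp90b1 stood at 2851, 5498 and 2636 CPM against 589.6, 612.0 and 635.9 CPM, a log2 ratio of 2.49 (SE 0.31). Both were higher in every culture, and among the 3 cultures Hsp90b1 was highest in pool F.

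Creld2 (1.63, SE 0.20), Derl2 (1.37, SE 0.21), Pdia6 (1.10, SE 0.19), Pdia4 (1.05, SE 0.20), Pdia3 (0.85, SE 0.20), Manf (0.86, SE 0.21) and Dnajb11 (0.73, SE 0.20) were the other genes above, as log2 ratios. Sel1l (-0.83, SE 0.19) was lower, and so was Hyou1 (-0.66, SE 0.23, adjusted p = 0.0408). The call of Hyou1 was lost without the polysome library of pool E (-0.82, adjusted p = 0.051) and without the polysome (-0.31, adjusted p = 0.467) or the total library (-0.32, adjusted p = 0.463) of pool F, and without the block (-0.56, adjusted p = 0.146). Hspa5 stood at 1295, 996.1 and 1747 CPM in polysome and 1208, 1286 and 1537 CPM in total RNA; its groups overlapped, and its log2 ratio of -0.03 (SE 0.20) changed sign without the pool F polysome library (0.12).

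In the Atf4 arm 5 genes were higher in polysome RNA, 1 was lower and 7 did not pass. Atf4 stood at 263.7, 325.5 and 223.5 CPM in polysome and 140.9, 151.5 and 128.8 CPM in total RNA, above it in every culture, with a log2 ratio of 0.93 (SE 0.20, adjusted p = 0.00132). Atf5 (0.96, SE 0.21) and Ppp1r15a (0.81, SE 0.22, adjusted p = 0.00877 by edgeR) were higher too. That makes 3 of the 4 members with regulatory upstream open reading frames, where 14.8% of all genes were called higher. Ppp1r15b (0.11, SE 0.20) did not pass. Cebpb and Gadd45a, the other genes of the arm called higher, are outside this set. Ppp1r15a stood at 84.8, 148.3 and 99.2 CPM against 58.1, 65.4 and 60.8 CPM, was highest in pool F and lost its call without the polysome (0.60, adjusted p = 0.0782) or the total library (0.60, adjusted p = 0.075) of that pool, and without the low-count filter (0.55, adjusted p = 0.0632).

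Cebpb, whose mRNA gives several protein forms from different start sites, stood at 286.8, 522.4 and 185.6 CPM in polysome and 40.4, 48.3 and 33.9 CPM in total RNA, a log2 ratio of 2.91 (SE 0.25). Gadd45a was higher by 1.42 (SE 0.27) and Sesn2, a sensor of amino acid stress, lower by -1.44 (SE 0.35). Ddit4 rested on 6, 8 and 37 polysome counts and its log2 ratio of -0.08 (SE 0.93) is not a measure of its loading.

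**Figure D5:**
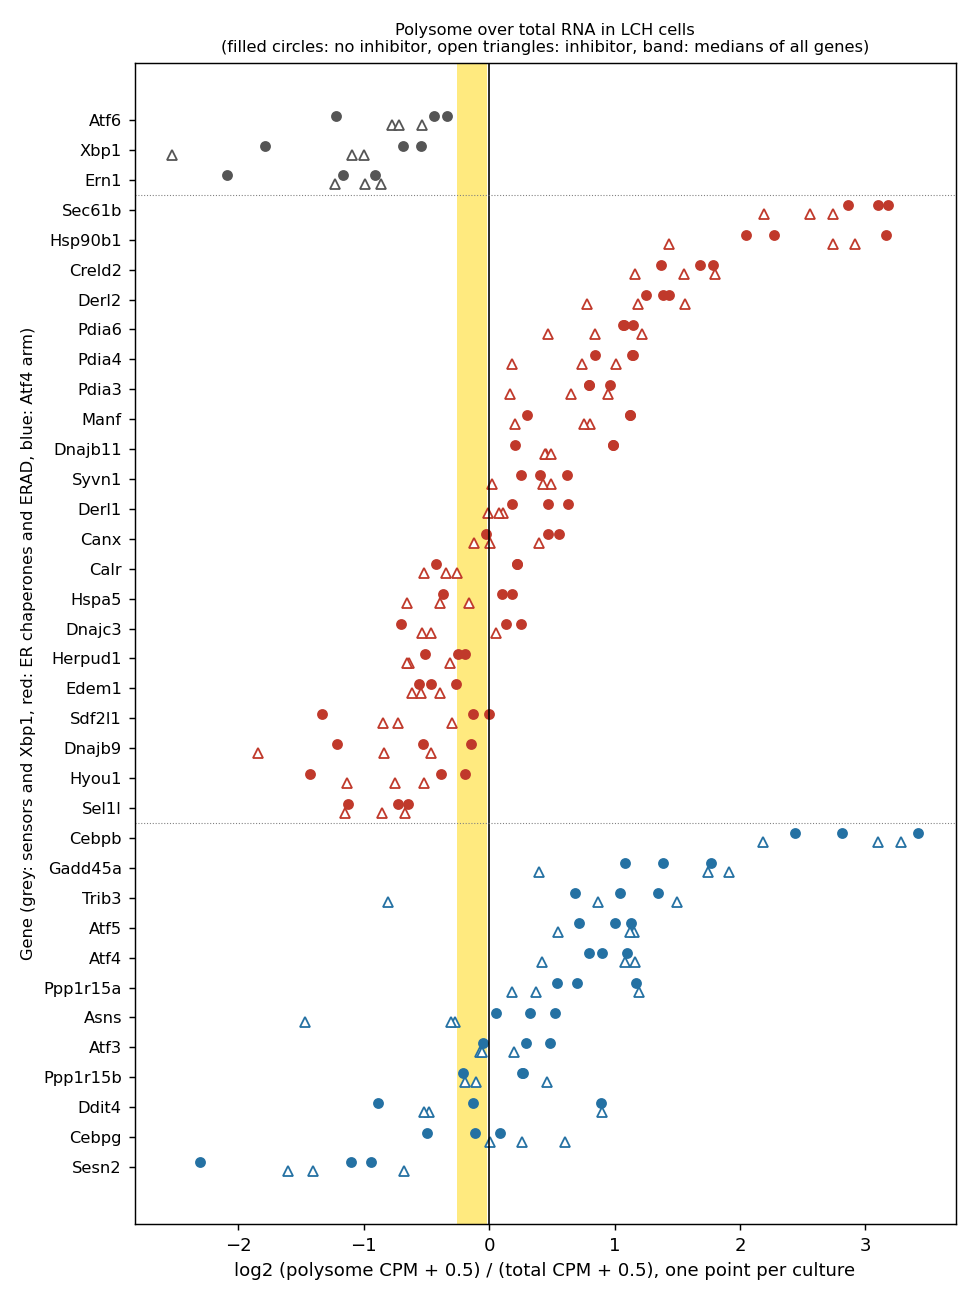
Log2 of (polysome CPM + 0.5) over (total CPM + 0.5) in LCH cells (x axis), for each culture, by member (y axis); filled circles are cultures without and open triangles cultures with inhibitor, and the band spans the medians of all genes in the 6 cultures. Sec61b, Hsp90b1 and Cebpb lie far to the right and the 3 sensors to the left of the band; Chac1, with no polysome count in 4 of the 6 cultures, is not drawn.

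With inhibitor, 12 members were higher and 10 lower in polysome than in total RNA, where 30.1% of genes were called, 12.9% higher and 17.2% lower, and the median over all genes was -0.24 (-0.11 with DESeq2 size factors). Leaving out a library of pool E left 11 calls, for its polysome as for its total library. Xbp1 stood at 37.8, 12.9 and 36.6 CPM in polysome and 81.2, 77.0 and 73.4 CPM in total RNA, a log2 ratio of -1.52 (SE 0.34, adjusted p = 0.00555). Ern1 (-1.06, SE 0.28) and Atf6 (-0.68, SE 0.21) were lower again. The call of Ern1 was lost without the polysome (-1.02, adjusted p = 0.0599) or total library (-1.03, adjusted p = 0.0603) of pool E. That of Atf6 was lost without the polysome library of pool E (-0.71, adjusted p = 0.0827) or G (-0.68, adjusted p = 0.0693) and without the total library of pool E (-0.71, adjusted p = 0.0803) or G (-0.62, adjusted p = 0.0723).

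Sec61b (2.50, SE 0.20), Hsp90b1 (2.37, SE 0.31), Creld2 (1.52, SE 0.20) and Cebpb (2.88, SE 0.25) were the members with the highest log2 ratios with inhibitor. Atf4 (0.90, SE 0.20, adjusted p = 0.00193) and Atf5 (0.95, SE 0.21) were higher, and the call of Atf4 was lost without the polysome (0.67, adjusted p = 0.0661) or total library (0.68, adjusted p = 0.0533) of pool F. Ppp1r15a did not pass (0.59, SE 0.22, adjusted p = 0.0531) and did pass without the polysome (0.77, adjusted p = 0.0366) or total library (0.83, adjusted p = 0.0287) of pool G and with DESeq2 size factors (0.70, adjusted p = 0.0286). Hspa5 lay at 932.8, 765.4 and 978.4 CPM in polysome and 1041, 1202 and 1284 CPM in total RNA (-0.40, SE 0.20), which did not pass, except without the low-count filter (-0.68, adjusted p = 0.00082). Herpud1 (-0.54, SE 0.19), Sel1l (-0.89, SE 0.19), Hyou1 (-0.80, SE 0.23), Edem1 (-0.52, SE 0.18) and Dnajb9 (-1.13, SE 0.41) were the chaperone and ERAD genes below. The call of Hyou1 was lost without the polysome library of pool G (-0.85, adjusted p = 0.052). Sesn2 was lower by -1.29 and lost its call without the polysome library of pool E (-1.26, adjusted p = 0.051) or G (-1.10, adjusted p = 0.0668), without the total library of pool E (-1.27, adjusted p = 0.0527) or G (-1.05, adjusted p = 0.0798) and without the block (-1.20, adjusted p = 0.0509). Chac1, called lower, had no count in the 3 polysome libraries with inhibitor and 27 to 34 counts in total RNA, so no ratio is given.

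The effect of the inhibitor on the polysome over total ratio in LCH cells was called for no member and no gene (0.00% of 14816 by edgeR, 204 genes and 1 member, Asns, at an unadjusted p under 0.05, and 3 genes but no member by DESeq2). Asns had a log2 difference of ratios of -0.98 (SE 0.42, unadjusted p = 0.0307) and Sec61b of -0.55 (SE 0.27). Xbp1 (-0.52, SE 0.47), Hspa5 (-0.37, SE 0.28), Ppp1r15a (-0.22, SE 0.31) and Atf4 (-0.04, SE 0.28) had errors of about the size of their values or larger; the value for Ddit4 (0.01, SE 1.30) carries no information. In polysome RNA alone no member and no gene was called for the inhibitor (0.00% of 10757 by edgeR, 290 genes and no member at an unadjusted p under 0.05, and 24 genes but no member by DESeq2). Herpud1 (-0.49, SE 0.26), Hspa5 (-0.41, SE 0.26) and Atf5 (0.41, SE 0.25) had the smallest p among members in this fit without the pool, and Xbp1 had -0.60 (SE 0.43). With the pool as a block, 30 genes and no member were called there (0.279%), and 5 members had an unadjusted p under 0.05, all with a value below 0: Hspa5 (-0.41, SE 0.11, adjusted p = 0.316), Xbp1 (-0.66, SE 0.19, adjusted p = 0.39), Herpud1 (-0.51, SE 0.15, adjusted p = 0.411), Gadd45a (-0.72, SE 0.22, adjusted p = 0.441) and Asns (-0.74, SE 0.33, adjusted p = 0.631).

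LCH and WT polysome RNA could be compared only across libraries of unlike depth. Of 35 members tested, 3 were called higher in LCH and none lower, where 22.1% of 9902 genes were called, 21.4% higher and 0.717% lower, and where the median over all genes was 1.62 (0.46 with DESeq2 size factors). The member median was 1.13, below that of all genes. Hsp90b1 had 26499, 21248 and 26969 counts in LCH and 19, 1270 and 50 in WT, which is 3.31 on the log2 scale (SE 0.98, adjusted p = 0.0278). Its call was lost without LCH pool E (3.61, adjusted p = 0.0519) or F (2.95, adjusted p = 0.0771) and without WT pool A (3.08, adjusted p = 0.0611) or C (2.99, adjusted p = 0.0793). Asns had 178, 67 and 276 counts in LCH and Trib3 72, 26 and 38, and both had 0 counts in the 3 WT libraries, so no fold is given; the call of Trib3 was lost without LCH pool E (adjusted p = 0.0562) or WT pool BD (adjusted p = 0.118).

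Xbp1 had 548, 101 and 668 polysome counts in LCH and 0, 172 and 1 in WT, and Hspa5 12032, 3850 and 17878 against 1, 561 and 160. Most of the WT counts of these genes came from pool BD. The log2 fold changes of Hspa5 (2.22, SE 1.23), Ppp1r15a (2.27, SE 1.21), Atf4 (0.20, SE 1.15) and Xbp1 (0.36, SE 1.36) did not pass, and those of Atf4 and Xbp1 turned with the scaling, to -1.27 and -0.71 with DESeq2 size factors. The number of members called ranged from 1 without LCH pool E to 9 without WT pool BD, and it was 2 without LCH pool F, WT pool A or WT pool C. Ddit4 had no count in any WT polysome library and was not tested.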

How the data were processed

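Counts per gene were deposited by the authors for 24 libraries, in 8 groups of 3, with a second table of normalized counts (a signal that differs from the counts by more than a factor per library). Salmon, DESeq2 and the build mm9 are named without versions in the submitters' processing notes; the table itself names no build, and its coordinates are not printed. Values on the log2 scale, here and in the text, were computed from the deposited counts.

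Each comparison used edgeR 4.0.16 (quasi-likelihood test, TMM scaling, filterByExpr with a minimum count of 10, Benjamini-Hochberg adjusted p under 0.05) in R 4.3.3, over all genes that passed the filter. These were 13375 in the 12 total RNA libraries and 14816 in the 12 LCH libraries. They were 10757 in the 6 LCH polysome libraries and 9902 in all 12 polysome libraries, both with and without inhibitor. The members and lists were chosen with earlier results of these data known. Named in each comparison are Xbp1, Hspa5, Atf4, Ppp1r15a and Ddit4 and up to 6 called members with the smallest p in each direction; of the other lists, up to 4 genes in each direction. Members beyond these are named to account for all 37.

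The labels call the replicates biological, and column names carry letters, called pools here (A, BD and C in WT, and E, F and G in LCH). The last is written GH in polysome columns and was taken as G. The letters are not in the labels, so what they stand for is not known. Libraries of 1 pool with and without inhibitor deviated together from their group means in total RNA (r = 0.518, 0.344 and 0.735 in LCH, 0.506, 0.465 and 0.141 in WT, all above the limit of 0.1), so the blocked values are given for the inhibitor in total RNA. LCH pools E and F also deviated with each other: r was 0.348 for E without and F with inhibitor, and 0.286 for F without and E with inhibitor. Pairs of G with E or F had r of -0.611 to -0.409, and unlike pools in WT -0.462 to 0.0569. In LCH polysome RNA, r was 0.217, 0.231 and 0.387 for pools E, F and G, also above the limit, and -0.239 to -0.0438 for unlike pools. For the inhibitor in polysome RNA the fits without and with the block are both given. The p-values measure the spread between these samples.

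Alternatives were DESeq2 1.42.0, its size factors, no low-count filter, the 4 rRNA-type genes left out, each library left out, other sets of libraries, the block and, chosen after seeing the data, limma 3.58.1 on log2 of the normalized counts + 1 the pool F polysome libraries left out and each pool left out of the blocked fit. The code was tested on simulated data.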

Additional observations from a re-analysis of the deposited data

Results flagged for a closer look

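By the test of the difference itself, the inhibitor effect on total RNA differed between LCH and WT for 13 members. This was in the fit with the pool as a block (edgeR), where 19.7% of genes were called, 9.88% higher and 9.85% lower. Without the block no member passed this test, and 0.389% of genes did. The differences, as log2 effect in LCH minus that in WT, were negative for 5 members: Gadd45a (-1.07, adjusted p = 5.1e-06), Herpud1 (-0.60, adjusted p = 0.00526), Ddit4 (-0.59, adjusted p = 0.048), Creld2 (-0.47, adjusted p = 0.00576) and Syvn1 (-0.43, adjusted p = 0.00197). They were positive for Ppp1r15a (0.35, adjusted p = 0.00604), Pdia3 (0.34, adjusted p = 0.00801), Calr (0.31, adjusted p = 0.0117), Atf6 (0.31, adjusted p = 0.0121), Canx (0.30, adjusted p = 0.00928), Derl1 (0.30, adjusted p = 0.0138), Sdf2l1 (0.30, adjusted p = 0.0204) and Pdia4 (0.29, adjusted p = 0.0229). The calls of Gadd45a, Syvn1, Ppp1r15a, Pdia3 and Canx were kept whichever pool was left out, and that of Ddit4 was lost whenever a pool other than BD was left out. Gadd45a moved apart in both genotypes: it fell in all 3 LCH pools and went from 45.4 to 50.5, from 32.2 to 37.0 and from 38.6 to 52.3 CPM in the WT pools.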

How the results depend on the processing

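The number of members called stayed within 1.5 times its value under 122 alternatives and left that range under 13. These were, leaving single libraries aside, the pool block for the inhibitor in total RNA (11 in LCH, 10 in WT and 13 for their difference, against 0), DESeq2 for the inhibitor in LCH (2), the fit of all 24 libraries for polysome over total RNA (0 without and 0 with inhibitor), and DESeq2 size factors, DESeq2 and no filter for LCH against WT polysome RNA (1 each). With each library left out in turn the count was 14 to 18 for LCH against WT in total RNA, 15 to 20 with inhibitor, 16 to 18 for polysome over total RNA, 11 to 16 with inhibitor, 1 to 9 in polysome RNA of LCH against WT and 0 for the inhibitor. Without the replicate block 16 and 18 members were called for polysome over total RNA, without and with inhibitor; the block changed no other count by more than 1.5 times. With each pool left out of the blocked fit, 5 to 9 members were called for the inhibitor in LCH (11 with all pools), 2 to 16 in WT (10) and 7 to 13 in the difference (13), and no called member changed sign; these fits are not among the numbers of alternatives given here. Of the values of single genes, 1111 kept direction and side of the threshold, 22 newly passed, 76 no longer passed and 60 changed sign, all 60 for genes that had not passed in that comparison; the cause was not tested.

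In total RNA, limma on normalized counts turned the inhibitor effect in WT of Atf4 (0.10), Ppp1r15a (0.11) and Xbp1 (0.12). These values and those that follow for the inhibitor are from fits without the block. Leaving out single libraries gave -0.16 to 0.044 for Atf4 and -0.29 to 0.012 for Ddit4 with inhibitor in LCH, -0.042 to 0.042 for Atf4 in WT, and -0.15 to 0.051 for Atf4 and -0.17 to 0.061 for Hspa5 in the difference. For polysome over total RNA without inhibitor, Hspa5 turned without the block (0.0028), with all 24 libraries (0.0075) and without pool F polysome libraries (0.10), and ranged from -0.16 to 0.12 with a library left out; Ddit4 turned without the block (0.17) and ranged from -0.75 to 0.46. With inhibitor, Ddit4 turned with DESeq2 size factors (0.045), DESeq2 (0.052), no block (0.17), all libraries (0.067) and no pool F (0.12), and ranged from -0.77 to 0.32. For the inhibitor effect on this ratio, Atf4 turned with DESeq2 size factors, DESeq2 and rRNA-type genes left out (0.082 each), no block (0.019) and all libraries (0.056), and ranged from -0.24 to 0.20; Ddit4 turned with no filter (-0.0115) and no block (-0.0011), and ranged from -0.67 to 0.63. With inhibitor in LCH polysome RNA, Ddit4 turned without pool F (0.12) and ranged from -0.81 to 0.49, Atf4 from -0.19 to 0.28 and Ppp1r15a from -0.23 to 0.52. For LCH against WT polysome RNA, DESeq2 size factors and DESeq2 turned Atf4 (-1.27 and -1.25) and Xbp1 (-0.71 and -0.68), and Xbp1 ranged from -0.16 to 4.43. Depth limits Ddit4, Trib3 and Chac1 in polysome RNA and all members in WT polysome RNA.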

Other observations

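Other lists were read in polysome over total RNA of LCH cells without inhibitor, where the median log2 ratio of all genes was -0.26 and 29.5% of genes were called, 14.8% higher and 14.6% lower. Of 39 other genes of ER folding and secretion, 18 were higher in polysome RNA and 4 lower, with a median of 0.51; Fkbp2 (2.89), the translocon subunit Sec61g (2.15) and the signal peptidase subunits Sec11a (2.15) and Sec11c (1.82) were above, and the cargo receptor Lman1 (-1.34) and the oligosaccharyltransferase subunit Stt3b (-0.80) below. Of 17 other ERAD genes, 7 were higher, among them the small membrane selenoproteins Selenok (2.63) and Selenos (2.00), and 3 were lower, Edem3 (-1.41), Nploc4 (-1.10) and Ube2j1 (-1.79). Of 11 cytosolic and mitochondrial heat shock genes 5 were higher and none lower, Bag3 (1.26), Hsp90ab1 (1.06) and Hspa8 (0.94) and the mitochondrial Hspe1 (3.48) and Hspd1 (0.77). Of 20 amino acid supply genes 4 were higher and 2 lower, and of 15 genes of eIF2 kinases and signalling 4 and 2, with a median of -0.23 in both lists. Ddit3, whose mRNA also has a regulatory upstream open reading frame, was higher by 1.07 (SE 0.30, adjusted p = 0.0102 by edgeR).

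With inhibitor in both genotypes, 27 of the 39 genes of ER folding and secretion were higher in LCH than in WT total RNA and none lower, with a median log2 fold change of 0.46. Of all genes tested in that comparison, 9.27% were called higher and 11.0% lower. Amino acid supply genes numbered 5 higher and 1 lower of 20, with a median of 0.06, and aminoacyl-tRNA synthetases 5 higher and none lower of 18.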
